A study of Mus musculus with 7 samples.

Results

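The regions described here are the stretches of β-cell chromatin that were open in Control cells and nearly closed when CHD3 and CHD4 were both deleted. A region was taken as shut down by its mean CPM, at least 3 over the 4 Control libraries and at most 0.75 over the 3 Chd3/4Δβ libraries. CPM are the deposited read counts scaled to a size for each library, which may include a normalization factor. This rule found 200 of the 61288 regions listed in the deposited table (0.326%), and 0.724% of the 27620 regions with a Control mean of 3 CPM or more. The members were thus chosen by the CPM of these same 7 libraries, and their levels and fold changes are given below as a description, without a test. ATAC-seq, in which the Tn5 transposase inserts adapters into accessible DNA, was performed on β cells of male mice sorted for the Tomato reporter. The Chd3/4Δβ libraries (Chd3-4Db in the labels) came from mice whose Chd3 and Chd4 alleles were both fl/fl, and the Control libraries from mice that were +/+ at both genes. Mice of both groups carried the MIP-CreERT transgene, whose Cre is driven by a mouse insulin promoter, and the R26 LSL-tdTomato reporter, and both were given oral tamoxifen as young mice. In the headings of the deposited table the Control columns begin with Mi2, which the Chd3/4Δβ columns lack and whose meaning is not stated. Control replicates 1 to 3 share a lane tag, and Chd3/4Δβ replicate 3 has a lane tag of its own. Whether the groups were prepared or sequenced together is not stated, and a difference of that kind cannot be told apart from the deletion in any value below. The labels give neither the strain background nor whether replicates of a group were separate animals, so that p-values measure only the spread between these libraries.

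CHD3 and CHD4 are alternative ATP-dependent remodelling subunits of the NuRD complex, which joins nucleosome sliding to histone deacetylation and is best known for closing enhancers and promoters. NuRD is also recruited to active enhancers, where it sets nucleosome spacing and transcription factor occupancy. In β cells the remodeller is known to work with PDX1, the transcription factor that maintains insulin production and the mature state.

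Most shut-down regions lay away from gene starts. Overlap with RefSeq promoter windows, the 250 bases before an annotated start, was searched for members on most chromosomes but not all. Among the members searched, 4 overlapped such a window by 50 bases or more, and members left out of the search may add to them. The stretches of these windows inside the 4 regions are shown because they are the shut-down sequences that were read here. Each is written 5′ to 3′ on the strand of its gene, from RefSeq GRCm38.p6, and ends at the base before the annotated start. Capitals mark matches to any of 17 short motifs searched on both strands.
Wiz, minus strand, chr17:32369423-32369532: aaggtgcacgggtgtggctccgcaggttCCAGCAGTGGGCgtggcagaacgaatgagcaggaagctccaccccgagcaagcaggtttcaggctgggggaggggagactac
Raet1e, plus strand, chr10:22158338-22158568: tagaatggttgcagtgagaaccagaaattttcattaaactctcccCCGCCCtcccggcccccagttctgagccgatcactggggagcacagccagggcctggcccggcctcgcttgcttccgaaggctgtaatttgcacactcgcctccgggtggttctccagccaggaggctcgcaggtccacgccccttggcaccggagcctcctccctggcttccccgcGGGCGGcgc
Gm31101, plus strand, chr1:132786986-132787235: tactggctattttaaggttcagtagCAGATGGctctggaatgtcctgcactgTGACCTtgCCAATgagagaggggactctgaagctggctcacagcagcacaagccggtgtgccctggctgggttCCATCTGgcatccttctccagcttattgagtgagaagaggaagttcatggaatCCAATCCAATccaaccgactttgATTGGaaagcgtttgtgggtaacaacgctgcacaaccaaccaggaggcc
Gm34350, plus strand, chr7:67805642-67805809: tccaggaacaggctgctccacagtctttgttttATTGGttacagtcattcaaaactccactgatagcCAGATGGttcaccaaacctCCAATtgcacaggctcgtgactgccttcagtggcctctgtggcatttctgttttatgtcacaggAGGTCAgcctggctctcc
The Wiz stretch held 1 match to the CTCF core motif, which 1.08% of the same stretches of 27025 RefSeq promoters also held. Raet1e held 2 GC boxes (GGGCGG), found in 32.4% of promoters over that stretch. The lncRNA genes Gm31101 and Gm34350 both held the NEUROD-type E-box (CAGATGG), NFY boxes (CCAAT) and a nuclear receptor half-site (AGGTCA). The E-box occurred in 4.48% of promoters over the longer Gm31101 stretch, where it matched at 2 places, and in 2.90% over the shorter Gm34350 stretch. The NFY box occurred in 34.5% and 27.2% of promoters over these stretches, and the half-site in 13.8% and 9.52%. These matches describe the letters in the windows and are not evidence of binding.

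The region over the RefSeq start of Wiz, a gene for a zinc-finger partner of the G9a histone methyltransferase, had 1.11, 0.103 and 0.0563 CPM in the Chd3/4Δβ libraries, against 2.95, 3.74, 2.68 and 3.32 CPM in the Control libraries. At Raet1e, a stress ligand of the natural killer receptor NKG2D, the values were 1.59, 0.154 and 0.281 CPM in Chd3/4Δβ and 3.18, 2.60, 3.39 and 3.06 CPM in Control. Chd3/4Δβ replicate 1 was the highest of its group at both. The Gm31101 region had 0.341, 0.564 and 0.563 CPM in Chd3/4Δβ, against 2.55, 4.02, 4.45 and 2.90 CPM in Control. The Gm34350 region had 0.295, 0.436 and 0.957 CPM in Chd3/4Δβ, against 4.88, 4.40, 3.59 and 2.69 CPM in Control. The groups did not overlap at any of the 4 regions, as at all 200 members, which follows from the rule. Over all listed regions 38.8% had this pattern. Another Wiz region, in the promoter class at chr17:32363767-32364967, remained open, with 23.1, 20.2 and 13.5 CPM in Chd3/4Δβ and 27.3, 23.3, 24.9 and 23.8 CPM in Control (log2 fold change -0.38, edgeR adjusted p = 0.0416).

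The 7 libraries had library sizes of 17772951 to 44026681 reads in Chd3/4Δβ and 17629713 to 42439029 reads in Control, of which 48.1% to 49.6% fell in listed regions. The table lists 55.9% of the 109675 regions that were tested upstream, so that unchanged regions are largely missing from every comparison here. All 9 β-cell marker genes, among them Ins1, Ins2, Mafa, Pdx1 and Ucn3, had a listed region, and their listed signal summed to 465 to 781 CPM in Chd3/4Δβ and 956 to 1193 CPM in Control. The summed signal at the genes of other cell types was higher in Chd3/4Δβ than in Control for acinar cells (47.3 to 60.9 against 32.7 to 35.3 CPM; 7 of 17 genes listed), endothelial cells (124 to 168 against 76.6 to 83.4 CPM; 10 of 12) and mesenchymal cells (123 to 148 against 58.4 to 70.5 CPM; 11 of 12). The ranges overlapped for ductal cells (109 to 149 against 108 to 121 CPM; 9 of 9) and immune cells (36.7 to 54.8 against 32.9 to 39.0 CPM; 7 of 16), and the genes of α, δ and PP cells had 312 to 356 against 211 to 238 CPM (16 of 19). The part of other cells in the shut-down regions was not tested. The only listed region over either deleted gene was in an intron of Chd4 (chr6:125103334-125103804), with 1.14 CPM in Chd3/4Δβ and 0.485 CPM in Control, and whether it lies in the deleted part was not tested, so the deletions were not checked here.

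Most members were modest peaks in Control cells. Their Control mean had a median of 3.48 CPM (3.01 to 10.6), and 107 of the 200 were under 3.5 CPM, while 19 reached 5 CPM and 6 reached 6 CPM. The Chd3/4Δβ mean had a median of 0.633 CPM (0.0997 to 0.7498), with 47 members at 0.5 CPM or less. The Chd3/4Δβ mean was lower by a median factor of 6.14 (4.02 to 31.9), and by 10 or more in 22 members. These levels rest on a median of 57 reads summed over the Chd3/4Δβ libraries (7 to 82) and 340.5 reads summed over the Control libraries (275 to 1110). At all 200 members every Chd3/4Δβ library lay below every Control library, a pattern held by 38.8% of all listed regions, and all 200 passed as lower in edgeR, which 20.4% of listed regions did. Both counts follow from the rule.

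**Figure D1:**
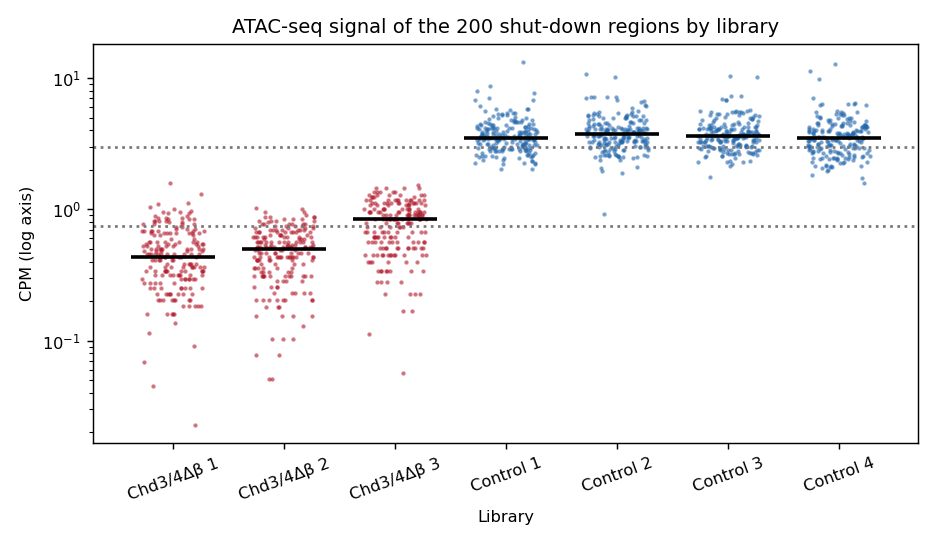
CPM of the 200 shut-down regions (points, log axis) in each library, with the median as a bar and the 3 and 0.75 CPM thresholds as dotted lines. The medians were 0.432, 0.5003 and 0.844 CPM in Chd3/4Δβ replicates 1 to 3 and between 3.51 and 3.74 CPM in the Control libraries, which chose the regions.

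Signal at the members was higher in 1 Chd3/4Δβ library than in the others. The median over members was 0.432, 0.5003 and 0.844 CPM in Chd3/4Δβ replicates 1, 2 and 3, and replicate 3 was the highest of its group at 137 of the 200 members (68.5%). Of the 67 members with a Chd3/4Δβ library above 1 CPM, 60 had only replicate 3 there, 5 only replicate 1 and 2 only replicate 2. At the 4935 other regions with a Control mean from 3 CPM to the members' upper quartile, replicate 3 was also the highest. Its median there was 2.48 CPM, against 2.07 and 2.23 CPM in replicates 1 and 2. Over all listed regions it was the lowest, at 3.21 CPM against 3.27 and 3.36 CPM. Replicate 3 also had the smallest library size of its group (17772951) and the lane tag of its own. The cause of its higher signal at members was not tested. The Control libraries were more even, with medians of 3.52, 3.74, 3.59 and 3.51 CPM. The coefficient of variation between libraries had a median of 45.2% in Chd3/4Δβ and 20.2% in Control, at read counts that were lower in Chd3/4Δβ.

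The strongest peak to be lost lay 18.1 kb from the start of Lsm14a, which encodes an RNA-binding protein of P-bodies, at chr7:34334917-34335824 between genes. It had 0.273, 0.718 and 0.506 CPM in the Chd3/4Δβ libraries, against 8.62, 10.7, 10.4 and 12.8 CPM in the Control libraries, a factor of 21.3 between the means. An intergenic region at chr1:167343331-167344147, with no named nearest gene, had 0.182, 0.282 and 1.29 CPM in Chd3/4Δβ, against 7.998, 10.1, 10.2 and 9.90 CPM in Control. Replicate 3 alone kept some signal there. In intron 1 of Ipcef1, which encodes a partner of cytohesin exchange factors and here overlaps the opioid receptor gene Oprm1, chr10:7024999-7025844 had 1.32, 0.334 and 0.563 CPM in Chd3/4Δβ, against 7.66, 6.51, 7.27 and 6.41 CPM in Control. Here replicate 1 was the high one, and all 3 Chd3/4Δβ libraries were far below the lowest Control library. The remaining 8 members among the 12 highest in Control, besides a region in Ptpro described further on, had Control means of 5.38 to 6.93 CPM and Chd3/4Δβ means of 0.604 to 0.735 CPM. They lay in introns of Pptc7, a mitochondrial phosphatase, Osbpl5, an oxysterol-binding protein relative, and Slc35b3, a sulfate donor transporter of the Golgi, near Tfeb, at the sodium-proton exchanger gene Slc9a3 and the actin regulator gene Wipf1, and at unnamed places on chromosomes 10 and 17.

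**Figure D2:**
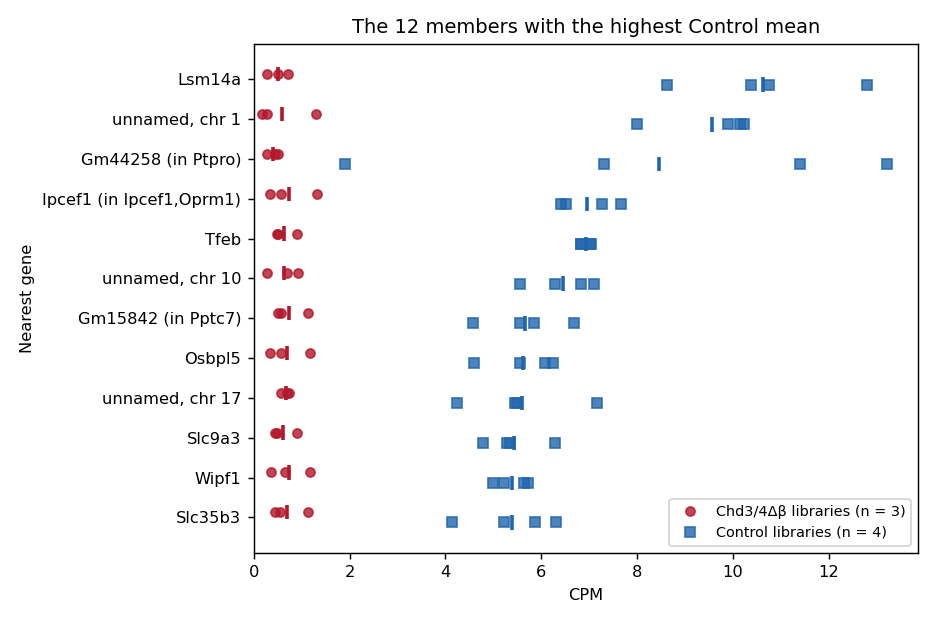
CPM in each library of the 12 shut-down regions with the highest Control mean, Chd3/4Δβ as circles and Control as squares, with group means as short vertical lines. Chd3/4Δβ values lie between 0.182 and 1.32 CPM throughout, and Control values between 1.90 and 13.2 CPM, with the widest spread at the Ptpro region.

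The lowest ratio of Chd3/4Δβ to Control belonged to chr6:137883733-137884107, an intergenic region with 0.0227, 0.0513 and 0.225 CPM in Chd3/4Δβ, against 4.65, 0.923, 2.63 and 4.52 CPM in Control. Only 7 reads over the 3 Chd3/4Δβ libraries stand behind the factor of 31.9. In intron 5 of Ttc27, chr17:74737587-74738288 had 0.114, 0.103 and 0.281 CPM in Chd3/4Δβ and 3.12, 3.47, 3.06 and 3.58 CPM in Control, a factor of 19.95. Near Tapt1, which encodes a membrane protein of the secretory route, chr5:44254416-44255095 had 0.182, 0.231 and 0.169 CPM in Chd3/4Δβ and 3.35, 4.34, 3.01 and 4.10 CPM in Control. The Tapt1 region had the widest gap between groups of all 200 members, its lowest Control library being 13.04 times its highest Chd3/4Δβ library. The median of this gap over members was 3.13 (1.47 to 13.04), and it was 2 or more at 189 members. Factors of 12.1 to 17.1 were also found near Lars1, a leucyl-tRNA synthetase, in Kat14, an acetyltransferase subunit of the ATAC coactivator complex, near the lncRNA gene Gm15972, near Nfe2, a transcription factor of the megakaryocyte and erythroid lines, in Clec2g, a lectin-type ligand of natural killer receptors, and in Ints9, where the nearest start is that of the heparan sulfate enzyme gene Extl3.

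Only 4 members were in the promoter class of the deposited annotation, and at 3 of their genes another promoter-class region was far more open and changed by less than 2-fold. The member at Psmd13, a proteasome lid subunit gene (chr7:140893858-140894625), had 0.341, 0.231 and 1.52 CPM in Chd3/4Δβ, against 4.37, 7.22, 5.12 and 3.32 CPM in Control. The other listed Psmd13 region, a promoter at chr7:140881576-140882640, had 30.4 ± 5.12 CPM in Chd3/4Δβ and 39.3 ± 1.55 CPM in Control (SD, n = 3 and 4), a log2 fold change of -0.36 with an edgeR adjusted p of 0.0151, short of the fold threshold. At Setd3, which encodes the actin histidine methyltransferase, the member (chr12:108163460-108164051) had 0.363, 0.872 and 0.844 CPM in Chd3/4Δβ and 4.08, 3.80, 3.87 and 2.14 CPM in Control. The main Setd3 promoter at chr12:108178509-108180182 had 79.7 ± 5.27 CPM in Chd3/4Δβ and 105 ± 0.513 CPM in Control, a log2 fold change of -0.39 (edgeR adjusted p = 0.000829). At Osbpl10, a lipid-binding protein gene, the member (chr9:114998124-114998762) had 0.341, 0.564 and 1.13 CPM in Chd3/4Δβ and 3.46, 2.82, 3.78 and 2.29 CPM in Control. The strongest Osbpl10 promoter at chr9:114977856-114979393 had 36.7 ± 2.27 CPM in Chd3/4Δβ and 44.2 ± 3.09 CPM in Control, a log2 fold change of -0.27 (edgeR adjusted p = 0.0412), while 2 weaker promoter-class regions of Osbpl10 were called lower (log2 fold changes of -1.38 and -1.39). At Rab3b, a small GTPase gene of secretory vesicles, the member (chr4:108938044-108938706) had 0.522, 0.667 and 0.900 CPM in Chd3/4Δβ and 2.27, 2.39, 4.06 and 3.42 CPM in Control. None of the other 5 listed Rab3b regions was in the promoter class.

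Of the 200 members, 4 lay nearest to a gene on the 17 lists examined. The lists covered β-cell maturity, islet transcription factors, exocytosis, channels, signalling, disallowed genes, NuRD, markers of other pancreatic cell types and others. Of the 308 list genes with a listed region, 4 were nearest to a member (1.30%), against 182 of all 24453 nearest symbols (0.744%). These shares differ in basis, since the 308 genes had 1347 listed regions, against 61288 over the whole table. Among regions with a Control mean of 3 CPM or more, 4 of the 677 of list genes were members, against 200 of all 27620 (0.724%). By that count the lists were not richer in members. The lists of β-cell maturity (27 genes with a listed region), glucose sensing and mitochondria (21), cAMP signalling (27), disallowed genes (24), NuRD subunits (13) and other chromatin modifiers (30) held none, which at 0.744% of all symbols says nothing particular about lists of this size. In an intron of Tcf7l2, a Wnt-pathway transcription factor gene and a type 2 diabetes risk locus in people, chr19:55867505-55868407 had 0.840, 0.308 and 0.394 CPM in Chd3/4Δβ, against 4.31, 7.11, 4.26 and 3.94 CPM in Control. Near Tfeb, the regulator of lysosome and autophagy genes, chr17:47803058-47803913 had 0.477, 0.898 and 0.506 CPM in Chd3/4Δβ and 7.03, 6.84, 6.84 and 7.02 CPM in Control, the most even Control values among the strong members. In intron 2 of Rph3a, which encodes the Rab3 effector rabphilin, chr5:120990192-120990962 had 0.591, 0.564 and 0.675 CPM in Chd3/4Δβ and 4.08, 4.29, 3.63 and 3.37 CPM in Control. In intron 1 of Kcnk10, a background potassium channel gene, chr12:98559951-98560553 had 0.386, 0.513 and 0.788 CPM in Chd3/4Δβ and 3.06, 3.04, 3.25 and 3.46 CPM in Control. At all 4 the groups were far apart, as the rule demands.

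By the rule, a gene without a member has no region with a Control mean of 3 CPM or more at or under 0.75 CPM in Chd3/4Δβ. Among the genes of the β-cell maturity and islet transcription factor lists without a member, the lowest such regions in Chd3/4Δβ, picked for their values and so not tested, were in introns. They lay nearest to Prlr, the prolactin receptor gene (1.11 ± 0.374 CPM in Chd3/4Δβ, 3.45 ± 0.768 CPM in Control), Glis3 (1.19 ± 0.0557 and 3.29 ± 0.900 CPM in Chd3/4Δβ and Control), Glp1r, the GLP-1 receptor gene (1.35 ± 0.660 and 3.96 ± 0.731 CPM), and Pdx1 (1.498 ± 0.494 and 3.77 ± 0.564 CPM; SD, n = 3 and 4).

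Several further members lay in genes of secretion, signalling and chromatin, chosen here after their values were seen. In introns there were members in Nsf, the ATPase that recycles SNARE complexes (0.655 CPM in Chd3/4Δβ, 3.30 CPM in Control), Atg7, an autophagy enzyme gene (0.545 and 3.31 CPM), Sin3a, a scaffold of another histone deacetylase complex (0.648 and 3.26 CPM), and Hadh, a mitochondrial enzyme of fatty acid oxidation (0.7498 and 3.24 CPM), all given as Chd3/4Δβ and Control means. Exonic or gene-end members included Mcu, the pore of the mitochondrial calcium uniporter (0.706 CPM in Chd3/4Δβ, 3.09 CPM in Control), and Chd6, another chromodomain remodeller (0.535 and 3.16 CPM). Pairs of members lay in the same gene at Camta1 (2590 bases apart), Rgs17 (2874 bases), Slc35b3 (3868 bases), Srbd1 (13370 bases), Lrrc7 (15871 bases), Ptprd (38151 bases) and Thada (44816 bases), and a pair 45637 bases apart was nearest to Mctp1.

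The members nearest the limits show where the rule drew its line. Just inside 0.75 CPM were regions of Hadh (0.7498 CPM in Chd3/4Δβ, 3.24 CPM in Control), Vps13c (0.749 and 4.61 CPM) and Bcas3 (0.748 and 3.17 CPM), and just outside were regions of Cacna1c, the L-type calcium channel gene (0.751 and 3.30 CPM), and Efemp2 (0.751 and 3.34 CPM). Just inside 3 CPM were regions near Carm1 (0.722 CPM in Chd3/4Δβ, 3.01 CPM in Control), Ap1b1 (0.748 and 3.01 CPM) and Lrrc7 (0.734 and 3.01 CPM), and just outside were Cntnap2, Gm43022 and Mb, with Chd3/4Δβ means of 0.737, 0.625 and 0.595 CPM and a Control mean of 3.00 CPM each. The regions on each side of a limit are alike in both groups.

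Compared with other regions open in Control cells, members were seldom at promoters. By the deposited annotation 90 were intronic (45%), 76 intergenic (38%), 16 exonic, 14 at transcription termination sites (TTS) and 4 at promoters (2.00%). Among the 27420 other regions with a Control mean of 3 CPM or more, 17.7% were at promoters and 26.1% intergenic. Since strong peaks are more often promoters, the 4935 other regions with a Control mean from 3 to 3.95 CPM, the upper quartile of the members, are the nearer comparison, with 6.30% at promoters, 51.6% intronic and 32.2% intergenic. Members within 1 kb of a start site made up 5.00%, against 9.79% of these 4935 regions, and members at 1 to 10 kb made up 49.5%, against 37.7%. The median distance to a start was 8660.5 bases in members, against 10926 bases in the 4935 regions and 7018 bases in the 27420. Members were also narrower, with a median width of 704.5 bases, against 824 bases in the 4935 regions and 1029 bases in the 27420. These are descriptions without a test.

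**Figure D3:**
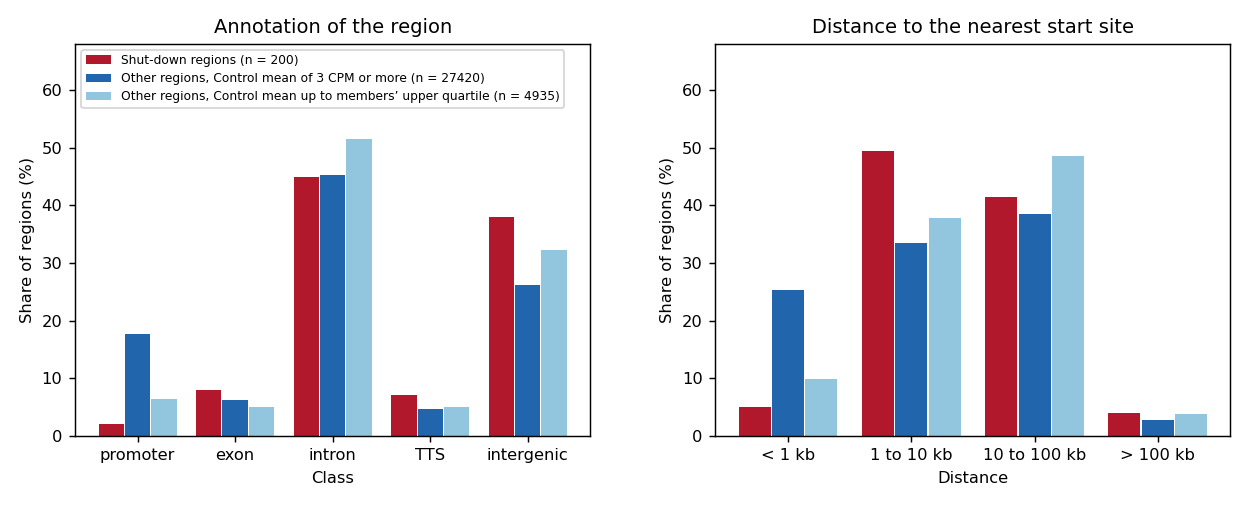
Share of regions (%) by annotation class (left) and by distance to the nearest start site (right) for the 200 shut-down regions, the 27420 other regions with a Control mean of 3 CPM or more, and the 4935 of these with a Control mean up to the members' upper quartile. Promoters make up 2.00%, 17.7% and 6.30%, and distances of 1 to 10 kb 49.5%, 33.4% and 37.7%.

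Members were spread over all chromosomes but Y, with an uneven share on chromosome 17. It held 19 members (9.50%), against 4.60% of the regions with a Control mean of 3 CPM or more, followed by chromosome 4 with 18 and chromosomes 2 and 10 with 16 each. Runs of 9 and 6 members were picked out after the positions were seen. A stretch of 6.62 Mb on chromosome 17 held 9 members, among them regions in or near Thada, Srbd1, Prkce and Fbxo11, out of 130 regions with a Control mean of 3 CPM or more (6.92 per 100). A stretch of 3.89 Mb at chr10:3137117-7025844 held 6, in or near Akap12, Ccdc170, Rgs17 and Ipcef1, among 52 (11.5 per 100). Of the other listed regions in the chromosome 17 stretch, 24.2% were called lower and 31.25% higher, and in the chromosome 10 stretch 24.8% and 30.5%, against 20.4% and 37.0% of all listed regions in edgeR. Over all members the median distance to the next member was 3489 kb, while 6 had another within 10 kb and 26 within 100 kb. Within 10 Mb of Chd3 lay 1 of the 11 members on chromosome 11, at 0.351 Mb. Within 10 Mb of Chd4 lay 3 of the 8 members on chromosome 6, the nearest at 2.50 Mb. Past that limit on chromosome 6 lay the Atg7 member and the 2 members with the widest Control spread, among others. The other open regions in these windows were not counted, so whether members gather near either gene was not tested.

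At a few members the libraries of one group differed from each other by far more than usual. In intron 6 of Ptpro, a receptor-type phosphatase gene, chr6:137422398-137423119 had 0.4997, 0.282 and 0.450 CPM in Chd3/4Δβ, against 13.2, 1.90, 7.32 and 11.4 CPM in Control replicates 1 to 4, a factor of 20.6 between the means. The intergenic region 461 kb away with the lowest ratio, given above, had the same order of Control replicates, with 1 and 4 high, 3 between and 2 low. These were the only 2 members whose highest Control library was over 3 times the lowest. A non-member region at chr6:137437458-137438458 had 6.16, 5.62 and 5.01 CPM in Chd3/4Δβ and again 18.8, 6.35, 11.9 and 19.3 CPM in Control. An intergenic one with Ptpro as its nearest gene, chr6:137467610-137468178, had 7.86, 9.01 and 9.68 CPM in Chd3/4Δβ and 0.624, 7.65, 3.11 and 0.613 CPM in Control, the opposite order, and at both of these regions Control replicate 2 was the Control library closest to Chd3/4Δβ. A Ptpro intron region at chr6:137411815-137412521 was even within Control, with 3.36, 2.64 and 3.99 CPM in Chd3/4Δβ and 15.3, 15.5, 15.5 and 16.3 CPM in Control (edgeR adjusted p = 1.25e-09).

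Within Chd3/4Δβ, 7 members had a highest library at least 10 times the lowest, among them the Wiz and Raet1e regions. Near Raet1e, a non-member promoter region at chr10:22148322-22149602 had 8.09, 0.744 and 0.450 CPM in Chd3/4Δβ and 14.97, 14.9, 16.5 and 21.7 CPM in Control. Replicate 1 was again the high library there, and the difference did not pass in edgeR (log2 fold change -2.35, adjusted p = 0.0935).

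Regions around the members were more often lower than listed regions in general. The rule used their values only to leave out those that met it. All had been listed by the upstream comparison of the same 7 libraries. The 182 symbols nearest to a member had 623 other listed regions, of which 206 were called lower (33.1%) and 161 higher (25.8%) by edgeR at an adjusted p under 0.05 and a 2-fold change, against 20.4% and 37.0% of all listed regions. Their median log2 fold change was -0.63, against 0.56 over all. The 156 listed regions within 10 kb of a member had 54 lower (34.6%) and 37 higher (23.7%), with a median of -0.66. With RLE scaling, which centres on the listed regions themselves, 47.8% of the 623 were lower and 21.2% higher, and 48.7% and 20.5% of the 156, against 31.7% and 29.3% of all listed regions. Among regions with a Control mean of 3 CPM or more, 31.4% of those of members' genes and 36.6% of those within 10 kb were lower, against 19.7% of the 27420. In the same 3 sets 4.53%, 2.44% and 10.2% were higher. No test of these shares was made, since regions of a gene are not independent.

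**Figure D4:**
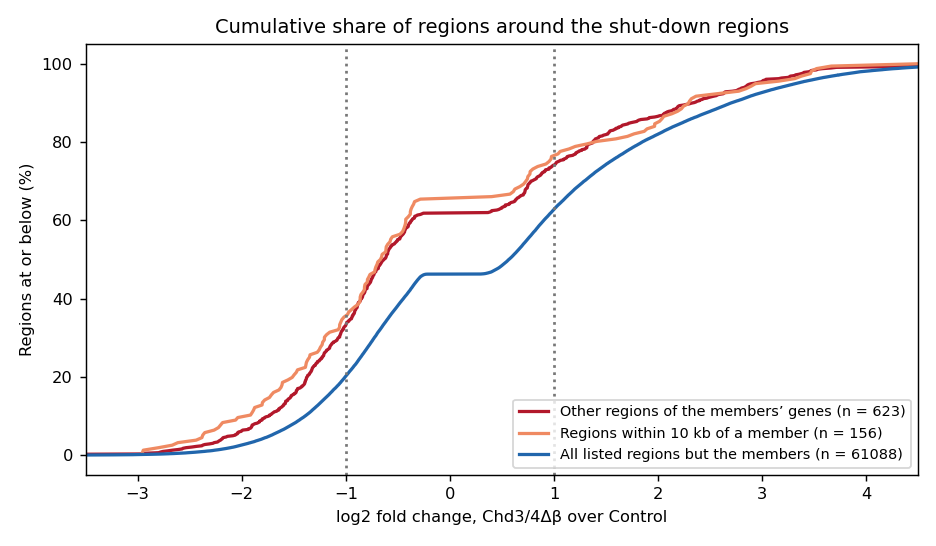
Cumulative share of regions (%) by log2 fold change, Chd3/4Δβ over Control, for the 623 other regions of the members' genes, the 156 regions within 10 kb of a member, and all 61088 listed regions that are no members. The dotted lines mark a 2-fold change, and the first 2 curves lie to the left of the third, with medians of -0.63 and -0.66 against 0.57.

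The genes and regions named from here on were chosen after their values were seen. At some genes many of the other regions were lower. At Ptprd, a receptor-type phosphatase gene, 10 of 13 other regions were lower and 1 higher, at Osbpl10 6 of 8 lower, at Birc6, a ubiquitin ligase and caspase inhibitor gene, 7 of 12, at Nav3 7 of 10 and at Vps13c, a lipid transfer protein gene, 7 of 10. The Birc6 promoter at chr17:74668808-74670568 had 1.73, 1.36 and 1.58 CPM in Chd3/4Δβ and 11.5, 10.7, 7.65 and 9.78 CPM in Control, a log2 fold change of -2.67 (edgeR adjusted p = 1.52e-09). At Kcnk10 the only other region, in the same intron at chr12:98564506-98565120, had 1.61, 1.08 and 2.53 CPM in Chd3/4Δβ and 8.17, 9.06, 7.99 and 9.24 CPM in Control (log2 fold change -2.37, edgeR adjusted p = 4.46e-08). A promoter nearest to Kat14 at chr2:144401081-144402474 had 2.27 ± 0.896 CPM in Chd3/4Δβ and 9.94 ± 0.948 CPM in Control (log2 fold change -2.19, edgeR adjusted p = 6.78e-08).

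Gain and loss also met at the same gene, as assigned by nearest symbol. Mtrf1l was the symbol nearest to the 2 members in Rgs17, a regulator of G-protein signalling. Of the 6 other regions nearest to Mtrf1l, 2 were lower and 2 higher. Of these, chr10:5857670-5858787 had 1.567, 0.744 and 0.394 CPM in Chd3/4Δβ and 6.69, 6.62, 7.12 and 9.73 CPM in Control (log2 fold change -2.95, edgeR adjusted p = 6.47e-08). The neighbouring chr10:5859712-5860159 had 1.70, 2.69 and 1.52 CPM in Chd3/4Δβ and 0.851, 0.814, 0.622 and 0.730 CPM in Control (log2 fold change 1.41, edgeR adjusted p = 0.000637). At Tfeb none of the 5 other regions was lower and 4 were higher, the largest in an intron at chr17:47744720-47745418 with 3.48, 3.46 and 1.86 CPM in Chd3/4Δβ and 0.681, 0.977, 0.765 and 0.401 CPM in Control (log2 fold change 2.14, edgeR adjusted p = 1.18e-05). At Tcf7l2 none of the 7 others was lower and 3 were higher, the largest at chr19:55941180-55942046 with 6.68, 6.57 and 3.38 CPM in Chd3/4Δβ and 0.851, 0.597, 0.765 and 0.895 CPM in Control (log2 fold change 2.82, edgeR adjusted p = 2.65e-08). At Ipcef1 2 of 4 were higher and none lower. In Setd3, a region at chr12:108164831-108165127, just beside the promoter-class member, had 2.27, 1.90 and 1.35 CPM in Chd3/4Δβ and 0.170, 0.380, 0.239 and 0.401 CPM in Control (log2 fold change 2.57, edgeR adjusted p = 2.31e-06). Near Mertk, a receptor gene for the uptake of dying cells, chr2:128694079-128694774 had 8.15 ± 0.848 CPM in Chd3/4Δβ and 0.739 ± 0.275 CPM in Control (log2 fold change 3.46, edgeR adjusted p = 3.15e-10).

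The rule was also applied without each library in turn. The library left out still took part in the upstream comparison that decided which regions were listed, so its values at the chosen regions are a description and not an independent check. Of all listed regions, 38.8% had every Chd3/4Δβ library below every Control library, and the share for a single library was not counted. The rule kept regions far apart in the other libraries, so high shares below are no separate result. With Chd3/4Δβ replicate 1 left out, the rule found 153 regions, and replicate 1 had a median of 0.545 CPM there and lay below every Control library at 100% of them. With replicate 2 left out it found 164 regions, with a median of 0.564 CPM in replicate 2, again below every Control library at 100%. With replicate 3 left out it found 473 regions, where replicate 3 had a median of 1.35 CPM, lay at or under 0.75 CPM in 15.4% and lay below every Control library in 97.7%. The number of members thus depended on replicate 3 more than on any other library, while 185 of the 200 members were among the 473. Leaving out a Control library gave 193 to 223 regions, where the Control library left out had a median of 3.09 to 3.53 CPM and was above every Chd3/4Δβ library at 100%.

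**Figure D5:**
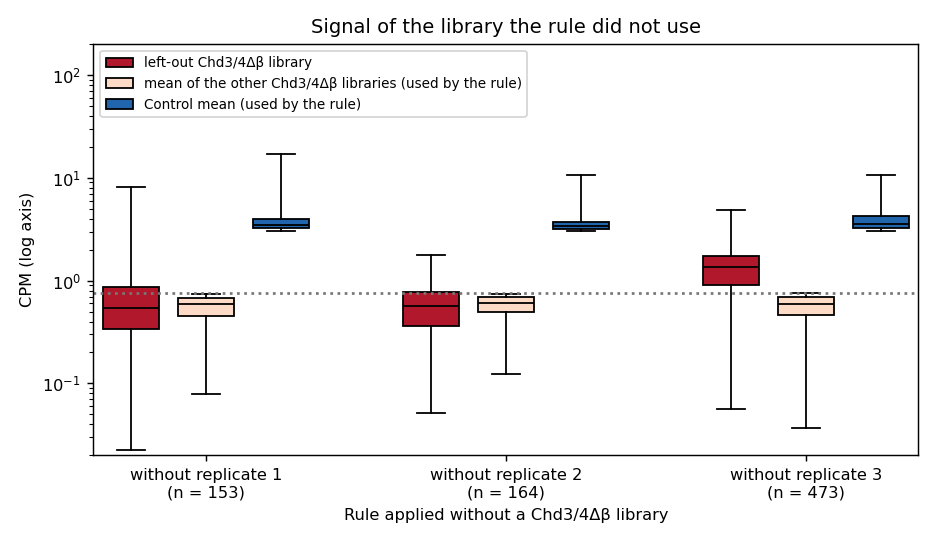
CPM (log axis) in the Chd3/4Δβ library left out, beside the mean of the other Chd3/4Δβ libraries and the Control mean, which chose the regions, for the rule applied without replicate 1, 2 or 3 (153, 164 and 473 regions). Boxes span the quartiles with the median as a line and whiskers the lowest and highest value, and the dotted line is 0.75 CPM; the median of the left-out library is 0.545, 0.564 and 1.35 CPM.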

How the data were processed

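ATAC-seq was analysed in 3 Chd3/4Δβ and 4 Control libraries. The authors deposited read counts per consensus region, CPM, and FDR-adjusted p-values of their own comparison, whose values are not printed here and served only to show that 109675 regions had been tested. All listed regions passed an FDR under 0.05 and exceeded 1 CPM in at least 3 libraries. An aligner, peak caller, counting tool or shift for Tn5 insertion is not given in the sources used here. GRCm39 is the build in the labels, but 69.4% of the 5839 promoter-class regions with a symbol in the RefSeq table lay within 2000 bases of a RefSeq GRCm38.p6 gene end, and coordinates are read as GRCm38.

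The quasi-likelihood test of edgeR 4.0.16 (R 4.3.3; robust, group as the only term) was run on deposited counts, dividing count by CPM to obtain each library size. Any normalization factor within the deposited CPM is thus part of these sizes. P-values were adjusted by the Benjamini-Hochberg method over 109675 regions, and a call required an adjusted p under 0.05 and a log2 fold change of at least 1 in size. Python 3.11.15, pandas 2.3.3 and matplotlib 3.10.9 were used for the rest. Alternatives were TMM and RLE scaling, DESeq2 1.42.0, a mean CPM of at least 2, a replicate block, each library left out, and other thresholds of the rule. Regions were named where they had the highest Control means, the lowest ratios, a promoter class or a listed gene, and others were chosen after their values were seen. The members and gene lists were chosen with earlier results of these data known. Some items chosen by this rule are not reported here.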

Additional observations from a re-analysis of the deposited data

Results flagged for a closer look

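Of the 34 named members, 3 had a single Control library far from the other 3, by a criterion that chance meets in about 1 in 20 groups. At chr1:167343331-167344147 Control replicate 1 was low at 7.998 CPM, against 9.90 to 10.2 CPM in the others. At the Tcf7l2 intron Control replicate 2 was high at 7.11 CPM, against 3.94 to 4.31 CPM. At the Setd3 promoter-class region Control replicate 4 was low at 2.14 CPM, against 3.80 to 4.08 CPM. All 3 lay above every Chd3/4Δβ library, as did the Control libraries at all 200 members, which follows from the rule.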

How the results depend on the processing

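The number of shut-down regions depended on the scaling and the limits: 335 with TMM and 425 with RLE factors (all 200 members among both), 340 with group medians, 7 at 4 and 0.5 CPM and 2252 at 2 and 1 CPM. Leaving out each library gave 153 to 473 regions, the highest without Chd3/4Δβ replicate 3. With those 7 strict regions, the differences from other open regions were 31.02 percentage points for the intergenic share, 37.99 for 1 to 10 kb from a start, -4.56 for chromosome 17, a reversal, and -253 bases in width. Against regions with a Control mean up to the members' upper quartile, the promoter share differed by -4.30 percentage points, width by -119.5 bases and distance by -2265.5 bases, a reversal. The median log2 fold change of all listed regions was 0.56, 0.35 with TMM and 0.25 with RLE factors. RLE factors called 19441 regions lower, against 12512. A mean CPM of at least 2 tested fewer regions and called 6179 lower and 11124 higher over the table, 102 and 64 at the members' genes, and 34 and 12 within 10 kb. The cause of the other shifts was not tested. Among 405 alternatives for named members, 21 moved and none reversed. Deviations from the group means were hardly shared by libraries of the same replicate number (correlations of 0.0788, -0.0190 and -0.0236). These values do not show whether the libraries were prepared in pairs. With a replicate block 12599 regions were called lower and 22783 higher, 209 and 166 at the members' genes, and 53 and 37 within 10 kb. Each member rests on 7 to 82 reads summed over the Chd3/4Δβ libraries, which limits the precision of its ratio.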
